A study of Mus musculus with 12 samples.

Results

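The AP-1 genes measured here are Fos, Fosb, Fosl1, Fosl2, Jun, Junb and Jund, 7 of the 52550 features in the count table, taken by gene symbol. All 7 passed the filter on low counts, which kept 14990 genes. The family was chosen by the levels of Fos and Junb, which were higher in every knockout library of these same data. The knockout against wild-type values of its members are therefore given as a description, with no test.

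The RNA was ribosome-bound RNA of astrocytes, obtained by translating ribosome affinity purification (TRAP) from slices of the somatosensory cortex of mice at postnatal day 40. In TRAP, an eGFP-tagged ribosomal protein is made in 1 cell type and its ribosomes are pulled down with an antibody to eGFP, along with the RNA they carry. The knockout group was Fmr1-/y Aldh1l1-TRAP and the wild-type group Fmr1+/y Aldh1l1-TRAP, both of FVB/C57 strain, so that both carried the tag driven by the astrocyte promoter Aldh1l1. There were 3 libraries of each genotype, named here by genotype and library number as KO14, KO16 and KO18, and as WT13, WT15 and WT17. The labels do not say how many animals went into a library, so the spread given is that between libraries.

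AP-1 is a transcription factor made of pairs of proteins that join through a leucine zipper. Jun proteins can pair with each other or with Fos proteins, while Fos proteins need a Jun partner to bind DNA. Fos, Fosb, Junb and to a lesser degree Jun are immediate early genes, which are transcribed within minutes of synaptic activity, growth factors or stress, and whose mRNA is short-lived. Jund is more steadily expressed in most tissues. In the brain, Fos is widely used as a marker of recently active neurons, and it can also be induced in astrocytes.

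Depth was 15760052, 10953958 and 21696862 counts in KO14, KO16 and KO18, against 19787520, 22397202 and 21188758 in WT13, WT15 and WT17. Ribosomal RNA reads pile up on 3 features of this annotation, CT010467.1, Lars2 and AY036118. Their share of all counts was 35.6% in KO14, 45.1% in KO16 and 0.892% in KO18, against 0.939% to 7.45% in the WT libraries. Libraries 14 and 16 thus stood apart from the other 4. The first number in the titles of libraries 13, 14 and 16 is 5 and in those of libraries 15, 17 and 18 it is 6. The labels do not say what that number is. Fmr1, the deleted gene, had 4.32, 4.22 and 1.32 CPM in KO14, KO16 and KO18, against 31.6, 38.4 and 37.0 CPM in WT13, WT15 and WT17. Here and throughout, CPM are read counts scaled to a common library size with the trimmed mean of M values (TMM).

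The sequence around the start of the genes is shown for the 3 members whose knockout and wild-type libraries did not overlap, Fos, Fosb and Junb, and for Jun as a member whose libraries did. Each window runs from 250 bases before to 50 bases after the annotated gene start (RefSeq, GRCm38.p6, the assembly known as mm10), and 6 of the 7 members had a window. Capitals mark TGACG, the core of the cAMP response element (CRE) that the activity-regulated factor CREB recognises, TGACNTCA, the 8-letter form bound by CREB, ATF and Jun proteins, and TATAAA, the TATA box. All were searched on both strands.
Fos, chr12:85473640-85473939, plus strand: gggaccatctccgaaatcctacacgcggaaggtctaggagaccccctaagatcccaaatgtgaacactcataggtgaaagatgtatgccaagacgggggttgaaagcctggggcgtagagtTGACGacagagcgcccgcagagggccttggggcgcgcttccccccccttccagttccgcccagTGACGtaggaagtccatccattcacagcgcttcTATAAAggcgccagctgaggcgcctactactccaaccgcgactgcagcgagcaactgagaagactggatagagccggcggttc
Fosb, chr7:19309996-19310295, minus strand: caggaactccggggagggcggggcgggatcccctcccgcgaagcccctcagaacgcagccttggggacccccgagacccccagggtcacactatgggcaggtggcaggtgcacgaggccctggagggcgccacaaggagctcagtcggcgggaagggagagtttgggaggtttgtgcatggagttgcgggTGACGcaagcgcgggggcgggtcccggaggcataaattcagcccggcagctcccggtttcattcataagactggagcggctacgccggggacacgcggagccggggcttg
Junb, chr8:84978699-84978998, minus strand: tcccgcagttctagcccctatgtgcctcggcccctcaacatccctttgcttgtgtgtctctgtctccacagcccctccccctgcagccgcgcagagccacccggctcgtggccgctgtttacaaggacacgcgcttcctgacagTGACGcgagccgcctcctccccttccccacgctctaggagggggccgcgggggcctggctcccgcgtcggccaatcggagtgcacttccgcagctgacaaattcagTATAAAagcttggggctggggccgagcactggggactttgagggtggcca
Jun, chr4:95052173-95052472, minus strand: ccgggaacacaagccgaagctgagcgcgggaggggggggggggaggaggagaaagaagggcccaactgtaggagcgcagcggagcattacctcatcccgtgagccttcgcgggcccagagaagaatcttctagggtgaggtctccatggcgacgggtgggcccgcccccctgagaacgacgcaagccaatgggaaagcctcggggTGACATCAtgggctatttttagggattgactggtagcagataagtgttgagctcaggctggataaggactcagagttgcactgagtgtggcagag

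TGACG was found at 2 places in the Fos window, starting 129 and 66 bases before the gene start, and at 1 place each in the windows of Fosb (60 bases before) and Junb (106 bases before). It was not found in the windows of Jun, Fosl2 and Jund. Of 32851 windows in the reference table, 20.8% hold TGACG. Jun held TGACATCA starting 45 bases before its start, a match to TGACNTCA that is present in 8.83% of all windows and in no other of the 6 members. TATAAA stood 33 bases before the start of Fos and at the annotated start itself in Junb, and 13.6% of all windows hold it. The CArG box, bound by serum response factor, the AP-1 site TGANTCA and the full CRE palindrome TGACGTCA were found in none of the 6 windows, against 1.63%, 7.81% and 1.79% of all windows. The window of Jund lies at the start of a gene span with 2 RefSeq transcripts, and which of them these ribosomes carried was not analysed here. These matches describe letters in 300 bases only. Sequence farther upstream was not searched. A motif not found here, such as the CArG box in Fos, may therefore lie outside the window, and its absence from the promoter is not shown.

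Of the 7 members, 3 had every knockout library above every wild-type library, namely Fos, Fosb and Junb. None (0) had every knockout library below, and 4 overlapped. Across all 14990 genes tested, 2.95% had every knockout library above every wild-type library, and nothing is read from the members' count, because this contrast chose the family. Astrocyte RNA and RNA of other cells are mixed in such a pull-down. A change in the cells of a type and a change in RNA per cell, up or down, therefore cannot be told apart.

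**Figure D1:**
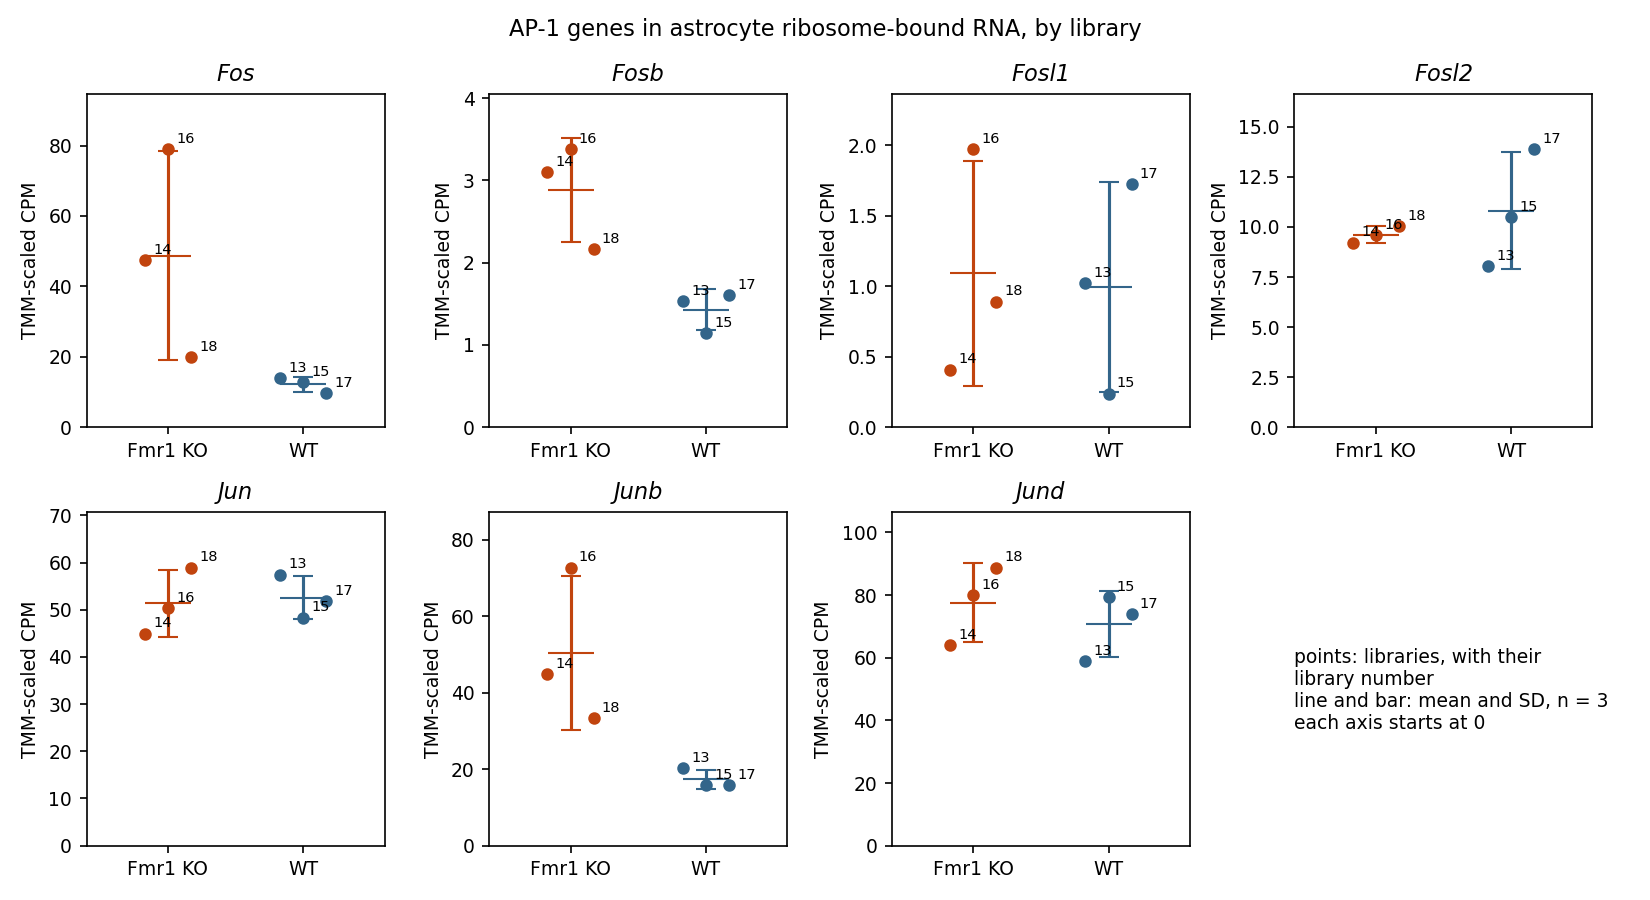
TMM-scaled CPM of the 7 AP-1 genes in each library (points, with library numbers), Fmr1 KO left and WT right, with the mean and SD of 3 libraries. Fos, Fosb and Junb have all KO points above all WT points, whereas Fosl1, Fosl2, Jun and Jund overlap.

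Among the Fos genes, the widest gap between the genotypes was that of Fos itself (ENSMUSG00000021250, chromosome 12, 85473890 to 85477274). It had 47.4, 79.0 and 19.8 CPM in KO14, KO16 and KO18, against 14.0, 12.7 and 9.76 CPM in WT13, WT15 and WT17. The 2 knockout libraries with the large ribosomal RNA share were the highest, and library 18 lay above the highest wild-type library by less than the others did. The mean was 48.7 ± 29.6 CPM over KO libraries and 12.2 ± 2.18 CPM over WT libraries (SD, n = 3 each), a 4.01-fold higher mean in the knockout. The edgeR log2 fold change was 1.99 with an SE of 0.44, and that in the authors' deposited table was also 1.99. These levels rest on 581, 561 and 512 reads in the knockout libraries and on 329, 322 and 255 reads in the wild-type libraries.

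Fosb (ENSMUSG00000003545, chromosome 7, 19302696 to 19310118), whose short splice form deltaFosB is known for its long-lived protein, was scarce. It had 3.10, 3.38 and 2.17 CPM in KO14, KO16 and KO18, against 1.53, 1.145 and 1.61 CPM in WT13, WT15 and WT17. As for Fos, libraries 16 and 14 were highest and library 18 was the lowest of the knockout libraries, still above every wild-type library. The means were 2.88 ± 0.635 CPM over KO libraries and 1.43 ± 0.248 CPM over WT libraries (SD, n = 3 each), with a log2 fold change of 0.99 and an SE of 0.35. The count was low, with 38, 24 and 56 reads in the knockout and 36, 29 and 42 in the wild type. Counts are per gene, so the splice forms were not told apart.

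The FRA proteins, encoded by Fosl1 and Fosl2, lack the strong activation domain of Fos and FosB. Fosl2 (FRA-2; ENSMUSG00000029135, chromosome 5, 32136472 to 32157840) had 9.22, 9.58 and 10.1 CPM in KO14, KO16 and KO18, against 8.05, 10.5 and 13.9 CPM in WT13, WT15 and WT17. The knockout libraries lay close together inside the range of the wild type. The log2 fold change of Fosl2 was -0.17 with an SE of 0.23. Fosl1 (FRA-1; ENSMUSG00000024912, chromosome 19, 5447698 to 5455938) was near the limit of detection, with 5, 14 and 23 reads in KO14, KO16 and KO18, against 24, 6 and 45 reads in WT13, WT15 and WT17. Its level was 1.09 ± 0.801 CPM over KO libraries and 0.994 ± 0.743 CPM over WT libraries (SD, n = 3 each). Fosl1 had a log2 fold change of 0.05 and an SE of 0.79. Its coefficient of variation was 73.5% in the knockout and 74.8% in the wild type, where genes within 0.5 log2 units of its level had medians of 39.7% and 38.6%, so that the libraries of each genotype differed more than those of most genes as scarce.

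Among the Jun genes, Junb (ENSMUSG00000052837, chromosome 8, 84976909 to 84978748) was the member whose groups did not overlap. JUNB is a weaker activator than JUN and can hold JUN-driven transcription back. Junb had 44.9, 72.7 and 33.4 CPM in KO14, KO16 and KO18, against 20.2, 15.9 and 15.8 CPM in WT13, WT15 and WT17. The lowest knockout library, 18, lay well above the highest wild-type library, 13. The means were 50.3 ± 20.2 CPM over KO libraries and 17.3 ± 2.49 CPM over WT libraries (SD, n = 3 each), a 2.91-fold higher mean in the knockout. The log2 fold change of Junb was 1.53 with an SE of 0.28, against 1.52 in the authors' deposited table. Junb rested on 550, 516 and 864 reads in the knockout libraries and 474, 403 and 414 reads in the wild-type libraries.

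Jun (ENSMUSG00000052684, chromosome 4, 95049036 to 95052222), the founding member and the target of the JNK kinases, had 44.9, 50.3 and 58.9 CPM in KO14, KO16 and KO18, against 57.4, 48.3 and 51.8 CPM in WT13, WT15 and WT17. The groups overlapped throughout, and libraries 14 and 16, the highest for Fos, were not the highest for Jun. The means of Jun were 51.4 ± 7.05 CPM over KO libraries and 52.5 ± 4.59 CPM over WT libraries (SD, n = 3 each; log2 fold change -0.03, SE 0.15). Jund (ENSMUSG00000071076, chromosome 8, 70697739 to 70700616), the Jun protein known to slow growth in several cell types, had 63.9, 80.0 and 88.8 CPM in KO14, KO16 and KO18, against 58.9, 79.2 and 73.9 CPM in WT13, WT15 and WT17. Its groups overlapped too, with a log2 fold change of 0.13 and an SE of 0.18. The authors' deposited table lists log2 fold changes of -0.02 for Jun, 0.14 for Jund, 0.95 for Fosb, -0.17 for Fosl2 and 0.03 for Fosl1.

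**Figure D2:**
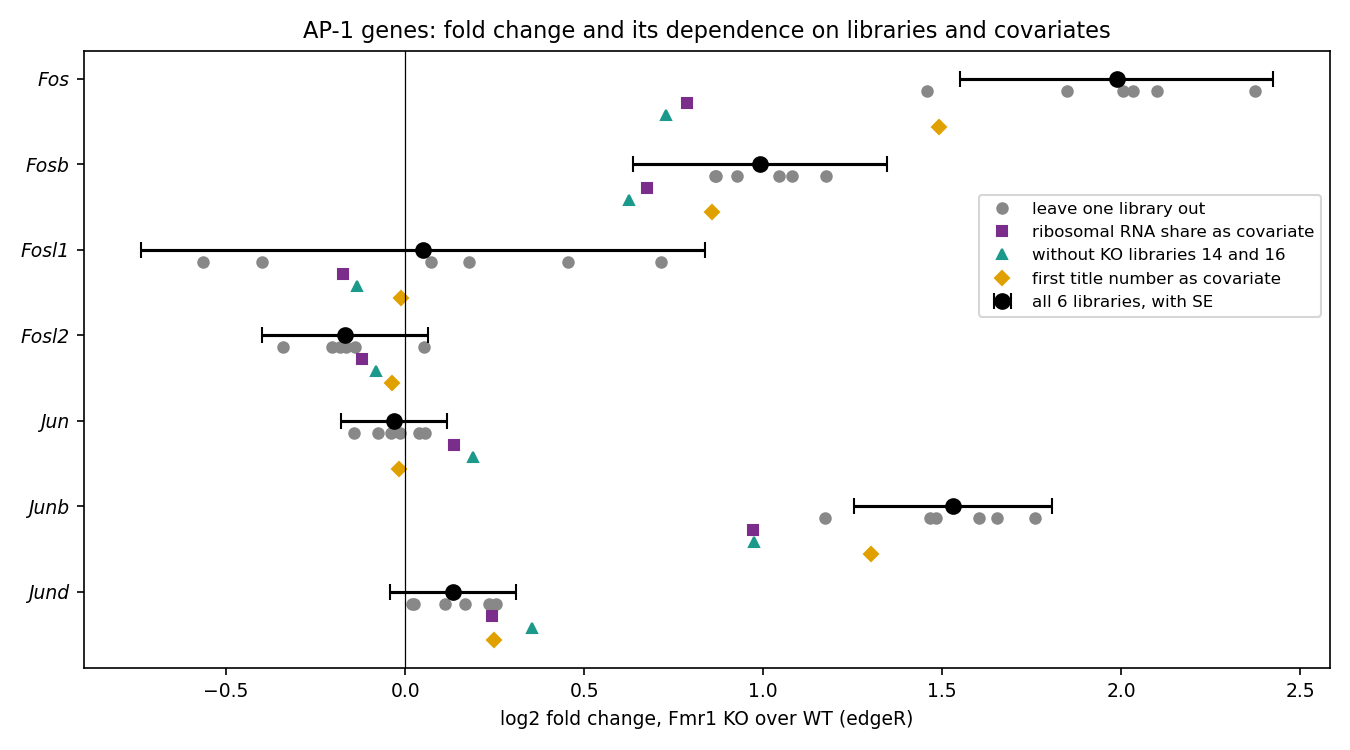
Log2 fold change of each AP-1 gene, Fmr1 KO over WT, from edgeR with all 6 libraries (black, bar is the SE) and under other choices of libraries and covariates (coloured symbols). Fos goes from 1.99 to 0.73 without KO libraries 14 and 16 and Junb from 1.53 to 0.97, while Fosl1, Fosl2 and Jun fall on both sides of 0.

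The Jun genes have no introns, so their gene span gives a length on which their levels can be compared. In the knockout libraries Junb had 27.3 ± 10.97, Jund 26.9 ± 4.37 and Jun 16.1 ± 2.21 CPM per kb of gene span (SD, n = 3). The range of Junb overlapped that of Jund and that of Jun. In KO18 Jund had 30.8, Jun 18.5 and Junb 18.2 CPM per kb, the order seen in the wild type. In the wild-type libraries Jund had 24.6 ± 3.66, Jun 16.5 ± 1.44 and Junb 9.41 ± 1.35 CPM per kb of gene span (SD, n = 3). Their ranges did not overlap in the wild type, so that the order was Jund, Jun and Junb in each wild-type library. The span of Jund covers 2 RefSeq transcripts, so its level per kb of transcript may be higher. The Fos genes have introns and were not placed on this scale.

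Because the 7 genes were counted in the same library, their shares of the family's counts do not depend on scaling between libraries. The family summed to 214, 297 and 214 CPM in KO14, KO16 and KO18, against 161, 168 and 169 CPM in WT13, WT15 and WT17. Every knockout library was above every wild-type library, but this sum includes Fos and Junb, by which the family was chosen. Nothing beyond the levels of those genes is read from it. Fos and Junb together made up 43.1%, 51.1% and 24.9% of the family's counts in KO14, KO16 and KO18, against 21.2%, 17.03% and 15.2% in WT13, WT15 and WT17. Jun and Jund together made up 54.6 ± 12.96% in the knockout and 74.2 ± 1.87% in the wild type (SD, n = 3 each). Shares add up to a whole, so that of Jun and Jund falls where that of Fos and Junb rises. The CPM of Jun and of Jund overlapped between the genotypes. These shares count reads and are not corrected for length.

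The ratio of Fos to Jun reads, its classical partner, was 1.054, 1.57 and 0.336 in KO14, KO16 and KO18, against 0.244, 0.263 and 0.188 in WT13, WT15 and WT17. The ratio of Junb to Jun reads was 0.998, 1.45 and 0.567 in the knockout libraries and 0.351, 0.329 and 0.306 in the wild-type libraries, in the same order of libraries. In both ratios KO18 was nearest to the wild type and KO16 farthest from it. The ratio of Fos to Junb reads overlapped between the genotypes, with 1.06, 1.09 and 0.593 in KO14, KO16 and KO18, against 0.694, 0.799 and 0.616 in WT13, WT15 and WT17.

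**Figure D3:**
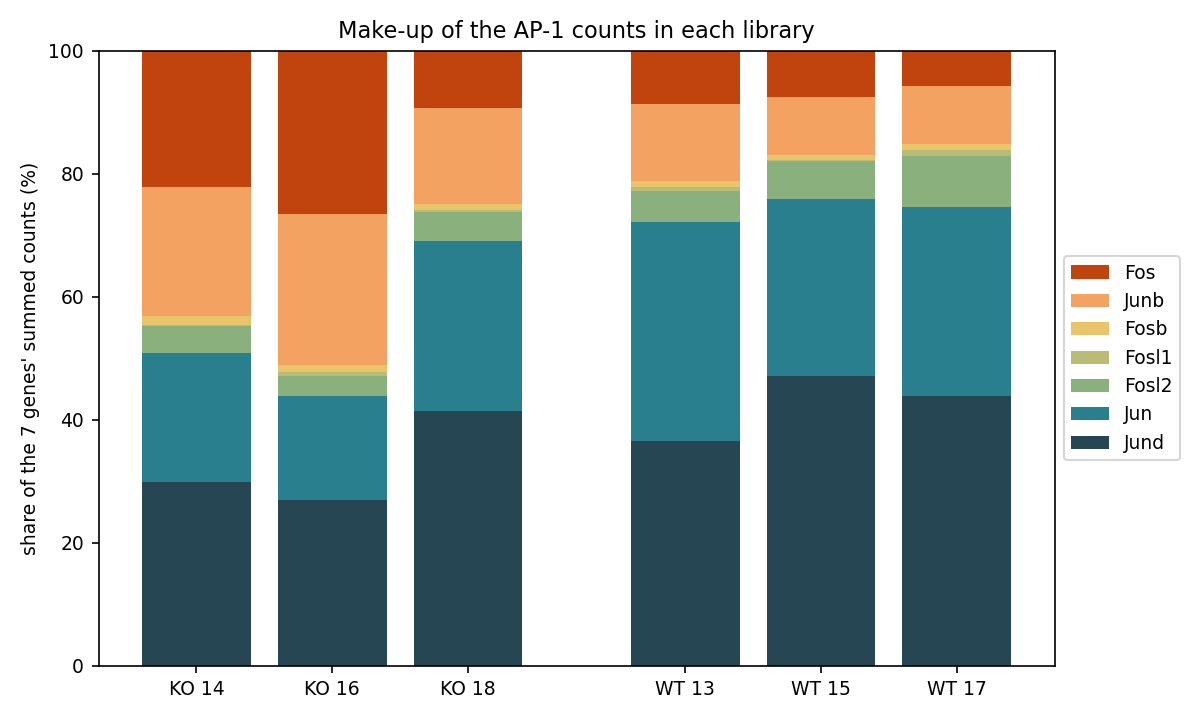
Share of the 7 AP-1 genes' summed counts (%) held by each gene in each library, KO libraries left and WT libraries right. Fos and Junb together hold 51.1% in KO 16 and 24.9% in KO 18, against 15.2% to 21.2% in the WT libraries.

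The knockout libraries with a large ribosomal RNA share, 14 and 16, held the highest Fos and Junb levels. Knockout library 18 had the lowest share of all 6 libraries, and in it Fos was 0.70 and Junb 0.95 above the wild-type mean on the log2 scale, against 1.96 and 1.37 in library 14 and 2.70 and 2.07 in library 16. With that share as a covariate in edgeR, the log2 fold change was 0.79 for Fos, 0.97 for Junb and 0.67 for Fosb. Only KO14 and KO16, both knockout, had a large share, so this fit leans on KO18 to part genotype from share. Without KO14 and KO16 the log2 fold change was 0.73 for Fos, 0.97 for Junb and 0.62 for Fosb, which rests on 1 knockout library. In that comparison of library 18 alone, 5 members lay above every wild-type library (Fos, Fosb, Junb, Jun and Jund), as did 25.4% of all genes tested. Among wild-type libraries, library 15 had the largest share at 7.45% and neither the highest nor the lowest Fos. Jun, from the same libraries, had 44.9 and 50.3 CPM in KO14 and KO16, within or below the 48.3 to 58.9 CPM of the other 4 libraries. Both fits thus lean on KO18 and are not separate estimates. The part of the ribosomal RNA share in the Fos and Junb levels was not tested.

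The first title number moves with the share in the knockout group, whose libraries 14 and 16 have 5 and library 18 has 6. Among libraries with 5, Fos had 47.4 and 79.0 CPM in the knockout, against 14.0 CPM in WT13 (log2 fold change 2.17). Among libraries with 6, Fos had 19.8 CPM in KO18, against 12.7 and 9.76 CPM in the wild type (log2 fold change 0.82). Junb had a log2 fold change of 1.54 among libraries with 5 and 1.08 among those with 6. In each set 5 of the 7 members had every knockout library above every wild-type library of the set, as did 34% of all genes tested among libraries with 5 and 34.9% among those with 6. Fos, Fosb, Junb and Jund were among them in both sets, joined by Fosl2 among libraries with 5 and by Jun among those with 6. In each set 1 member had every knockout library below, namely Jun among libraries with 5, as did 32.9% of all genes, and Fosl2 among those with 6, as did 35% of all genes. With the first title number as a covariate the log2 fold changes were 1.49 for Fos and 1.303 for Junb.

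**Figure D4:**
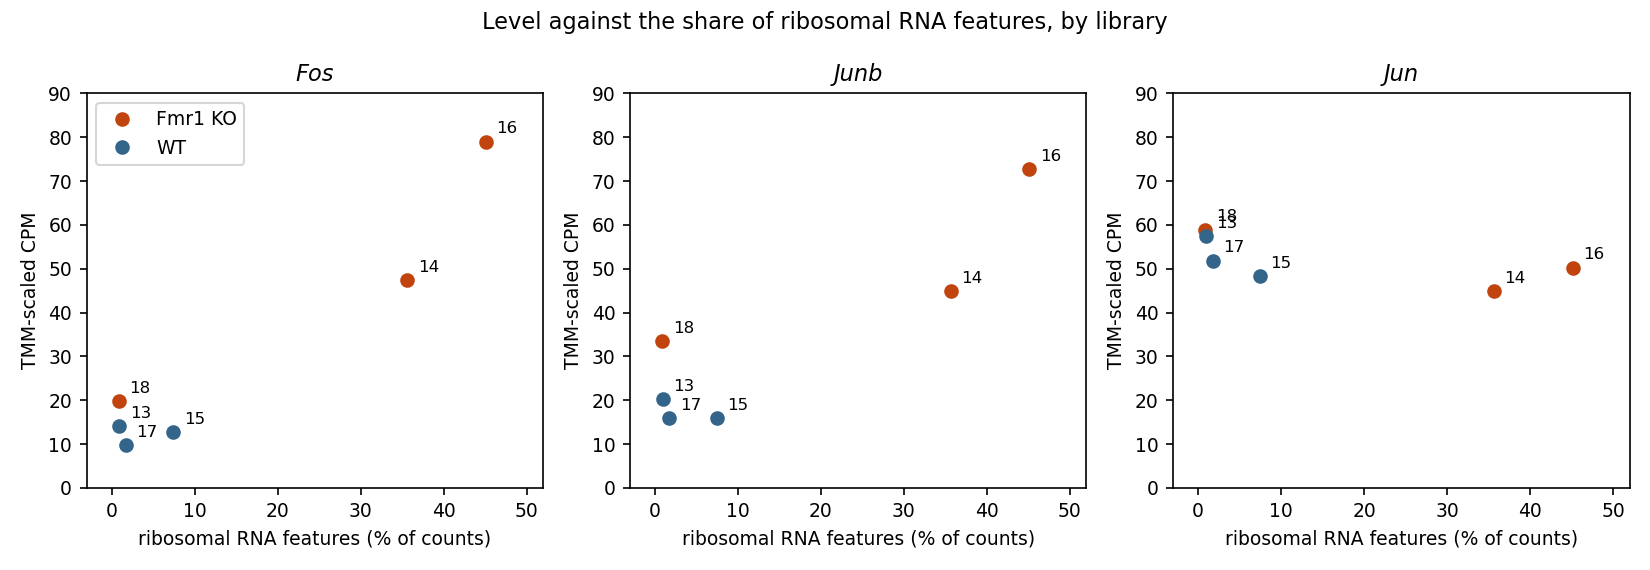
TMM-scaled CPM of Fos, Junb and Jun against the share of counts on 3 ribosomal RNA features (%), by library, KO in red and WT in blue. Fos and Junb are highest in KO libraries 14 and 16, at 35.6% and 45.1%, and KO library 18, at 0.892%, still lies above the WT libraries, whereas Jun has 44.9 and 50.3 CPM in KO libraries 14 and 16.

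Within a genotype, the members varied by unequal amounts. In the knockout the coefficient of variation was 60.8% for Fos and 40.1% for Junb, where genes within 0.5 log2 units of their level had medians of 13.3% and 13.2%. In the wild type it was 17.9% for Fos and 14.4% for Junb, where genes of like level had medians of 16.6% and 14.5%. Fosl2 went the other way, at 4.39% in the knockout and 27.1% in the wild type. Jun was at 13.7% in the knockout and 8.73% in the wild type, and Jund at 16.2% in the knockout and 14.9% in the wild type. The medians for genes at the level of Jun or Jund lay between 11.9% and 13.2%.

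The genes whose log2 CPM over the 6 libraries followed Fos most closely, among 11017 genes with a mean of at least 5 CPM, were Arpp19 (Pearson r = 0.991), Jmjd4 (0.979), Aqp9 (0.978), Junb (0.973) and Amn1 (0.971). For Junb they were Sertad3 (0.981), Mgat4b (0.975), Gm14434 (0.975), Fos (0.973) and Pomgnt1 (0.969). Fos and Junb were thus each among the 5 genes nearest to the other. That likeness is partly built in, because the family was chosen by both being higher in every knockout library. These correlations are a description over 6 libraries that share their genotype, their ribosomal RNA share and their scaling, and the highest of 11017 values over so few libraries is large by selection. Most of the other genes moved over a much narrower range, such as Arpp19, an inhibitor of the phosphatase PP2A, at 198 ± 16.8 CPM over KO libraries and 172 ± 3.87 CPM over WT libraries (SD, n = 3 each). Gm14434 had a range like that of Junb, at 11.5 ± 6.05 CPM over KO libraries and 2.80 ± 1.27 CPM over WT libraries (SD, n = 3 each).

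The genes around AP-1 were read from edgeR's quasi-likelihood test over all genes, which calls a gene at an adjusted p below 0.05. It called 0 of 14990 genes, and 265 (1.77%) had an unadjusted p under 0.05. The deleted Fmr1 itself, with a log2 fold change of -3.53, had an adjusted p of 0.30 in this edgeR test, so that counts of 0 in the lists that follow do not show that their genes were alike in both genotypes. DESeq2 called 8 genes (0.0534%) and edgeR's classic exact test 9 (0.06%). The kinases that relay growth factor, calcium and stress signals to AP-1 numbered 21, all tested, of which 0 were called and 0 had an unadjusted p under 0.05. Their median log2 fold change was -0.02, against -0.0019 for all genes tested. Mapk10, which encodes the neural JNK3, had 217 ± 21.4 CPM in KO and 212 ± 42.2 CPM in WT libraries. Map2k1, the gene of the kinase MEK1, had 164 ± 11.8 CPM in KO and 168 ± 0.127 CPM in WT libraries. Hras, a small GTPase gene, had 118 ± 20.02 CPM in KO and 125 ± 4.88 CPM in WT libraries (SD, n = 3 each).

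Transcription factors and cofactors at the Fos promoter numbered 19, all tested, of which 0 were called and 0 had an unadjusted p under 0.05, with a median log2 fold change of -0.03. That median was 0.15 without WT17 and -0.16 without WT13, so it went both ways with single libraries. The activity-regulated factor gene Mef2c had 245 ± 35.3 CPM over KO libraries and 238 ± 62.7 CPM over WT libraries, and its relative Mef2d 58.8 ± 8.05 CPM in KO and 54.1 ± 5.70 CPM in WT libraries. Mkl2, a coactivator of serum response factor, had 58.9 ± 10.4 CPM over KO libraries and 58.2 ± 20.5 CPM over WT libraries. Crebbp, the coactivator that binds phosphorylated CREB, had 48.4 ± 3.78 CPM over KO libraries and 49.3 ± 3.76 CPM over WT libraries (SD, n = 3 each).

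Of the other leucine zipper factors, several of which can pair with Fos or Jun proteins, 24 were listed and 19 tested. Of these 0 were called and 0 had an unadjusted p under 0.05, the share over all genes being 1.77%, and the median log2 fold change was 0.02. Atf4, the factor of the integrated stress response, had 180 ± 19.7 CPM over KO libraries and 163 ± 10.8 CPM over WT libraries. Atf2, a partner of Jun, had 63.5 ± 12.0 CPM in KO and 66.8 ± 5.90 CPM in WT libraries. Nfe2l2, the factor of the oxidative stress response, had 50.4 ± 4.69 CPM in KO and 54.3 ± 7.87 CPM in WT libraries. Mafg, a small Maf factor, had 36.1 ± 5.17 CPM in KO and 31.3 ± 2.64 CPM in WT libraries (SD, n = 3 each). Atf3, an immediate early gene of this class, did not pass the filter on low counts.

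Genes that limit Fos and Jun, by decay of the mRNA or breakdown of the protein, and their cofactors numbered 17, all tested. Of these 0 were called and 0 had an unadjusted p under 0.05, with a median log2 fold change of 0.02. Zfp36l2, of the family that binds AU-rich elements and speeds mRNA decay, had 103 ± 29.0 CPM over KO libraries and 83.3 ± 8.84 CPM over WT libraries. Fbxw7, part of a ubiquitin ligase that marks Jun, had 113.5 ± 12.8 CPM over KO libraries and 104 ± 29.7 CPM over WT libraries. Cops5, a Jun coactivator, had 94.8 ± 2.79 CPM in KO and 94.2 ± 2.098 CPM in WT libraries. The corepressor gene Ncor1 had 92.5 ± 15.9 CPM in KO and 97.9 ± 10.5 CPM in WT libraries (SD, n = 3 each).

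Genes reported in other settings to be induced by AP-1 numbered 21 tested of 30 listed, and 0 were called. Their median log2 fold change was -0.15, with 8 positive and 13 negative. That median rests on single libraries, since it was -0.02 without WT13, -0.04 without KO18 and -0.05 without KO16. Bdnf, a neurotrophin gene, was the 1 gene of the list at an unadjusted p under 0.05 (edgeR quasi-likelihood F test, adjusted p = 1.00). It had 5.55, 3.66 and 3.98 CPM in KO14, KO16 and KO18, against 6.81, 7.35 and 7.997 CPM in WT13, WT15 and WT17, with every knockout library lower. Across all genes 3.25% had every knockout library below every wild-type library. The most abundant genes of this list included Mt1, a metallothionein, at 4067 ± 574 CPM over KO libraries and 4912 ± 918 CPM over WT libraries, and its relative Mt2, at 1005 ± 117 CPM in KO and 1306 ± 244 CPM in WT libraries. Gfap, the astrocyte filament, had 2435 ± 245 CPM in KO and 2252 ± 342 CPM in WT libraries. Odc1, the first enzyme of polyamine synthesis, had 103 ± 7.67 CPM in KO and 104 ± 18.6 CPM in WT libraries (SD, n = 3 each).

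Of the other immediate early genes, 29 were listed and 28 tested, of which 24 had a positive log2 fold change. In edgeR's quasi-likelihood test over all genes 0 were called. At an unadjusted p under 0.05, which 1.77% of all genes had, 7 were positive and 1 was negative. The median log2 fold change was 0.49, against -0.0019 for all genes tested. These genes were picked with earlier results of these data in view, so their count is a description. Relative to the wild-type mean, their median was 0.38 and 0.54 in KO14 and KO16 and 0.08 in KO18, against -0.03 to 0.05 in the wild-type libraries. The median log2 fold change was 0.26 without KO16 alone, 0.13 without KO14 and KO16, 0.17 once the fit held the share of ribosomal RNA and 0.21 among libraries with the first title number 6. Gadd45b, a stress-inducible gene, had 14.1 ± 2.19 CPM over KO libraries and 9.15 ± 0.562 CPM over WT libraries. Btg2, an antiproliferative gene, had 21.6 ± 9.34 CPM in KO and 11.8 ± 3.28 CPM in WT libraries. Per1, a clock gene, was the 1 on the lower side, at 15.2 ± 1.36 CPM over KO libraries and 20.3 ± 2.78 CPM over WT libraries (SD, n = 3 each). The remaining genes at an unadjusted p under 0.05 were Npas4, Arc, Dusp1, Ier2 and Nr4a1, with log2 fold changes from 0.84 to 1.998. Not each gene followed the library order of the medians. Npas4 had 11.3, 6.34 and 8.94 CPM in KO14, KO16 and KO18, against 2.60, 1.70 and 2.37 CPM in WT13, WT15 and WT17. Among the knockout libraries Ier2 was likewise lowest in KO16, whereas Arc, Dusp1, Nr4a1 and Btg2 were lowest in KO18 and Gadd45b in KO14.

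**Figure D5:**
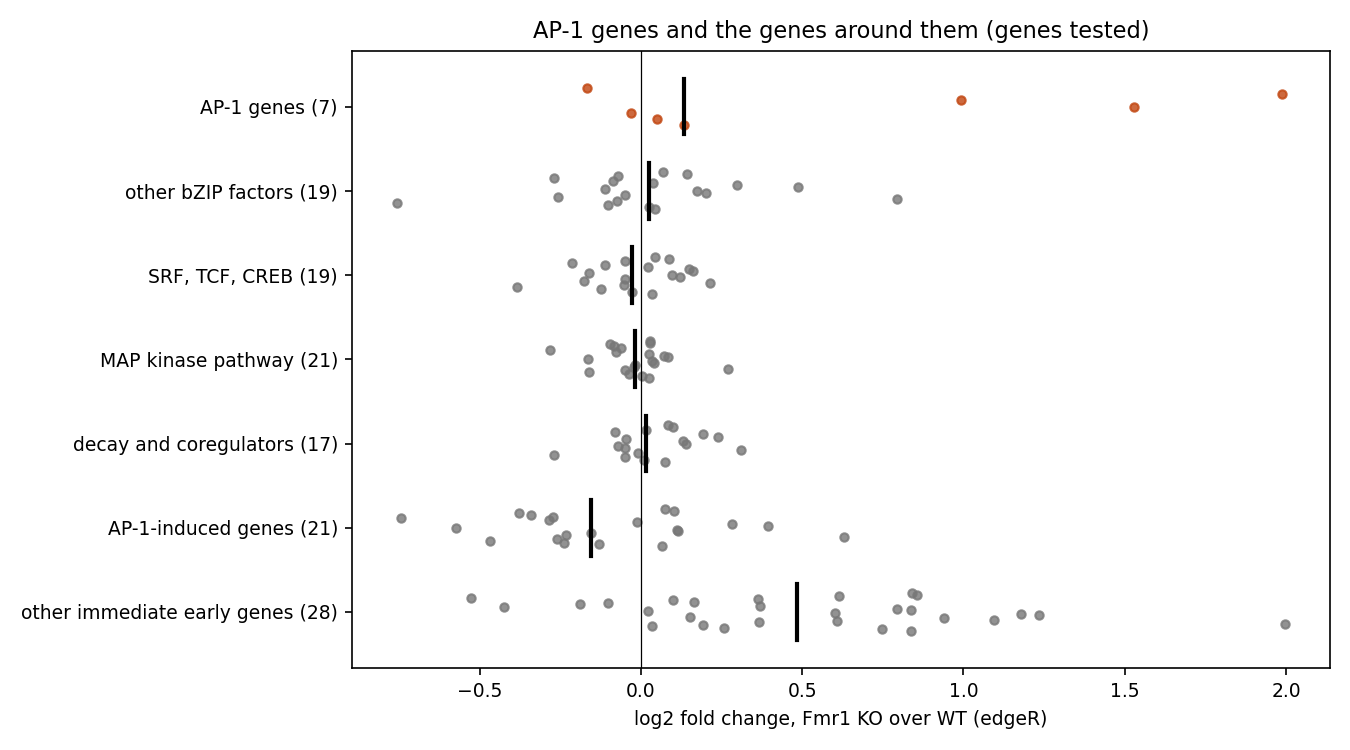
Log2 fold change of each tested gene, Fmr1 KO over WT, in the AP-1 family and the lists around it (points), with the list median (black line) and the number of genes tested in brackets. The medians of the kinases, the factors at the Fos promoter, the other leucine zipper factors and the decay genes lie within 0.03 of 0, and that of the other immediate early genes at 0.49.

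Markers of other cells were present in every library. The 14 neuron markers, 14 of 14 tested, summed to 2170, 1860 and 2630 CPM in KO14, KO16 and KO18, against 1344, 2300 and 2535 CPM in WT13, WT15 and WT17. Library 16, highest for Fos and Junb, was the lowest of the knockout libraries for neuron markers. The 10 microglia markers summed to between 53.5 and 62.6 CPM in the knockout and between 61.1 and 78.01 CPM in the wild type, and the 11 tested endothelial and mural markers to between 51.6 and 62.7 CPM in the knockout and between 55.1 and 60.3 CPM in the wild type. The 14 astrocyte markers, all tested, summed to between 27797 and 31957 CPM in the knockout and between 27914 and 33793 CPM in the wild type. The 10 oligodendrocyte markers summed to between 637 and 1472 CPM in the knockout and between 700.4 and 1246 CPM in the wild type, and the 5 blood genes to between 41.3 and 130 CPM in the knockout and between 40.9 and 88.1 CPM in the wild type. Among the tested markers of these lists, Kdr, an endothelial receptor gene, was at 0 CPM in KO16, and no other marker was at 0 in any library. KO18, the lowest knockout library for Fos, was the highest of all 6 for the neuron, oligodendrocyte and blood lists. From which cells the Fos and Junb reads came was not tested.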

How the data were processed

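Ribosome-bound RNA from astrocyte TRAP was sequenced as stranded total RNA after ribosomal RNA depletion, per the labels' protocols. Expected counts per gene, unscaled, were deposited by the authors as RSEM wrote them, per the file headers. The submitters' processing notes name STAR 2.5.3a, RSEM 1.3.0, edgeR and mm10. Neither strand setting nor annotation release is given, so overlapping antisense reads could not be told apart. The authors' deposited comparison table holds log2 fold changes and levels, p-values and a scaled signal for each entry, and of these the log2 fold changes are printed here.

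The 12 entries are 6 libraries with 2 entries each. Within a library the entries differed by a median chi-square per feature of 0.467 to 0.494 (summed count of at least 20), which for most features is close to sampling noise. Between libraries of 1 genotype that median was 2.93 to 18.8. The chi-square per degree of freedom was 1.17 to 2.34 within a library, so that some features differed by more than sampling noise. Between libraries of 1 genotype it was 17.8 to 407. The entries of a library were therefore added up and rounded, and count as 1 sample. Genes were filtered with filterByExpr and scaled by TMM, and fitted on genotype with edgeR's quasi-likelihood test (edgeR 4.0.16, limma 3.58.1, DESeq2 1.42.0, R 4.3.3) with Benjamini-Hochberg adjustment over 14990 genes and a threshold of 0.05. The SE was taken from the F statistic. The fit was tested on simulated data.

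The members and lists were chosen with earlier results of these data known. Named are the members, list genes at an unadjusted p under 0.05, up to 4 genes per list with the highest mean CPM where few passed that p, and the 5 genes most like Fos and Junb. 1 gene that this rule names is not reported here. For the immediate early list, only genes of the first kind are named. Creb1, Maff, Zfp36 and Atf3 stand in 2 lists each, and Gfap in a pathway and a marker list. Gene positions and promoter windows are from RefSeq (GRCm38.p6).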

Additional observations from a re-analysis of the deposited data

How the results depend on the processing

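Fos, Fosb, Junb and Jund kept a positive log2 fold change under all 19 alternatives each. For Fos, Fosb and Junb, higher in every knockout library, leaving libraries out could hardly have given another sign. Nothing is therefore read from the sign of these genes. Fos ranged from 1.46 (without KO16) to 2.37 (without KO18) when libraries were left out in turn, and Junb from 1.17 to 1.76. Fos moved to 0.79 with the share of ribosomal RNA features as a covariate, to 0.73 without KO14 and KO16 and to 0.82 among libraries with the first title number 6. Junb moved to 0.97, 0.97 and 1.08 under the same alternatives, and for both genes the cause was not tested. Jun, Fosl1 and Fosl2 were positive in 5 of 19, 12 of 18 and 2 of 19 alternatives. The count of members above every wild-type library was 3 with all libraries, and 5 without KO14 and KO16 and within either first title number, where fewer libraries have to differ (25.4%, 34% and 34.9% of all genes). The count of called genes was 0 in edgeR's quasi-likelihood test, 8 with DESeq2, 9 with the exact test, 6 with no filter, 1 with the share of ribosomal RNA features as a covariate, 0 to 2 when libraries were left out (2 without KO18, 1 without WT15) and 184 among libraries with the first title number 5, which leaves 1 wild-type library assumed to vary like the knockout libraries. Of the list medians and the wild-type ratio of Jun to Junb per kb, 14 of 106 values moved by more than the spread between libraries, among them that ratio without the length (log2 1.61 against 0.81). The median of the decay genes was 0.15 among libraries with the first title number 5 and -0.14 among those with 6. The alternatives within a first title number were added after seeing the data. No paired analysis was made because the labels do not pair the libraries. Fosl1 and Fosb had the fewest reads, at 5 to 56 per library.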
